A study of Mus musculus with 6 samples.

Results

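Respiratory complex I is built from many proteins, and the mRNAs of its nuclear-encoded subunits were followed in mouse hearts with (WT) and without (KO) the RNA *Trdn-as*. The members were taken by name, as the protein-coding genes of the count table whose symbol is Nduf followed by a, b, c, s or v and then a digit, which leaves out the assembly factors called Ndufaf. This gave 37 of 21776 genes. The rule used no measured value. Strand-specific total RNA of whole hearts was sequenced in 6 libraries, 1 for each of 3 KO and 3 WT mice. The non-coding RNA *Trdn-as* is made in cardiomyocytes and transcribed antisense to the triadin gene *Trdn*. The KO mice were homozygous for a polyadenylation site that Cas9 had placed in the first exon of *Trdn-as* in mouse embryonic stem cells, and chimeras were backcrossed to C57BL/6. The mutation is carried in the germline, so every cell of the animal holds it, although the labels describe the loss in cardiomyocytes, where the RNA is made. Age and sex of the animals are not given in the sources used here.

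Complex I, the NADH:ubiquinone oxidoreductase of the inner mitochondrial membrane, is the entry point of electrons from NADH into the respiratory chain. A peripheral arm takes up the electrons in its N module and passes them through iron-sulfur clusters to ubiquinone in its Q module, and a membrane arm pumps protons. The catalytic core is encoded partly by nuclear and partly by mitochondrial genes, whereas the remaining accessory subunits, all nuclear-encoded, stabilise and help to assemble the enzyme. The heart depends on respiration for its contraction, and cardiomyocytes are densely packed with mitochondria. Mitochondrial reads were removed by the authors, so the mitochondrially encoded subunits were not analysed here.

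The deposited values are read counts per gene divided by a size factor for each library and rounded to whole numbers, called normalised counts below. Estimated read totals were 3.15 to 3.62 M in KO and 2.59 to 3.46 M in WT libraries, the smallest in WT replicate 1. *Trdn-as*, listed under the clone name AC157017.2, had 1, 0 and 1 normalised counts in KO and 690, 773 and 688 in WT hearts, as the labels call for. Of the 13753 genes with a mean of at least 10 that were tested, 4 had an adjusted p under 0.05 (limma, two-sided, Benjamini-Hochberg). All 6 cardiomyocyte markers on the fixed list were expressed, and their summed normalised counts were 17964 to 19144 in KO and 18740 to 22840 in WT hearts. In whole hearts, fewer cells of a type and less RNA per cell cannot be told apart.

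Because subunits of an enzyme may share control elements, the promoters were read for letters that named factors recognise. RefSeq windows (GRCm38.p6) from 250 bases before to 50 bases after the start site were at hand for 32 of the 37 members, in 34 windows. Both strands were searched for GCGCA and GCGC with any 1 base between them, letters bound by NRF1, a factor known for activating nuclear genes of respiration. A match was present in 8 windows of 7 members, 23.5% of the members' windows, against 4.63% of 32544 windows of all genes. Matches are printed here on the gene's strand, with the match in capitals, and *Ndufa11*, whose match reads the same on both strands, is given once, as is *Ndufa5*, which has more than 1 start site.
Ndufa5: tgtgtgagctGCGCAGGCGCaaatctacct
Ndufa6: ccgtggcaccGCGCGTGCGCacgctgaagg
Ndufa8: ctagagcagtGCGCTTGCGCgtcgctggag
Ndufa11: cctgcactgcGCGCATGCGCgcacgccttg
Ndufb4: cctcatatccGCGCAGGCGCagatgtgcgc
Ndufs5: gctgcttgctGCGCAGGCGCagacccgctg
Ndufs6: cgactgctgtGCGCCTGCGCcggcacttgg

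These matches lay at chr6:24527697-24527726 (*Ndufa5*), chr15:82354249-82354278 (*Ndufa6*), chr2:36049349-36049378 (*Ndufa8*), chr17:56717692-56717721 (*Ndufa11*), chr16:37654371-37654400 (*Ndufb4*), chr4:123718265-123718294 (*Ndufs5*) and chr13:73328479-73328508 (*Ndufs6*), flanks included. *Ndufb4* held 3 matches, of which the closest to the start site is shown. The letters AAGATGGCG, which YY1 binds, were present in 5 windows, 14.7% against 1.41% of all windows. They are shown because all 5 matches lay in the same orientation and 23 to 36 bases into the transcript, counted from the start site as base 1.
Ndufa9: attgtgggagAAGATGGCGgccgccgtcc
Ndufc1: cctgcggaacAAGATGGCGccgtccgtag
Ndufs4: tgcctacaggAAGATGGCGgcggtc
Ndufs6: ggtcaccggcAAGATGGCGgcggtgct
Ndufs7: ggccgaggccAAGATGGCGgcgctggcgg

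They lay at chr6:126849097-126849125 (*Ndufa9*), chr3:51408915-51408943 (*Ndufc1*), chr13:114388045-114388069 (*Ndufs4*), chr13:73328433-73328459 (*Ndufs6*) and chr10:80249463-80249491 (*Ndufs7*). *Ndufs6* was the 1 member with both. The ETS letters CCGGAAG were present in 4 windows (11.8%, against 8.91% of all windows) and CAAGGTCA, bound by oestrogen-related receptors, in 1 window (2.94% against 1.53%). No 2 of the 4 motifs overlap in the sequences printed. A match describes letters in these windows and says nothing of binding in these hearts.

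All 37 members were expressed and passed the filter of a mean of 10, with means over the 6 hearts from 25.8 (*Ndufb4*) to 1361 (*Ndufs1*) normalised counts. Levels between genes were compared per kilobase of a main transcript of each gene. By this measure the accessory subunit *Ndufb9* at 536 ± 60.4 (SD, n = 3) and the iron-sulfur protein *Ndufs1* at 531 ± 37.4 were among the highest in WT hearts. The median member stood at 258, and 29 of 37 lay within a factor of 2 of it. Among the core subunits *Ndufs7* stood at 470 ± 28.2, *Ndufv1* at 420 ± 32.4 and *Ndufs3* at 239 ± 14.9. The lowest were *Ndufb4* at 26.1 ± 3.15 and *Ndufa4l2* at 35.0 ± 6.80, whereas the third lowest, *Ndufa12*, reached 115 ± 7.37. Ranges of mean ± SD overlapped in 35 of the 36 pairs of neighbours in this order. Part of each SD is a shift that members share within a library, so the overlap does not say how many ranks are resolved.

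**Figure D1:**
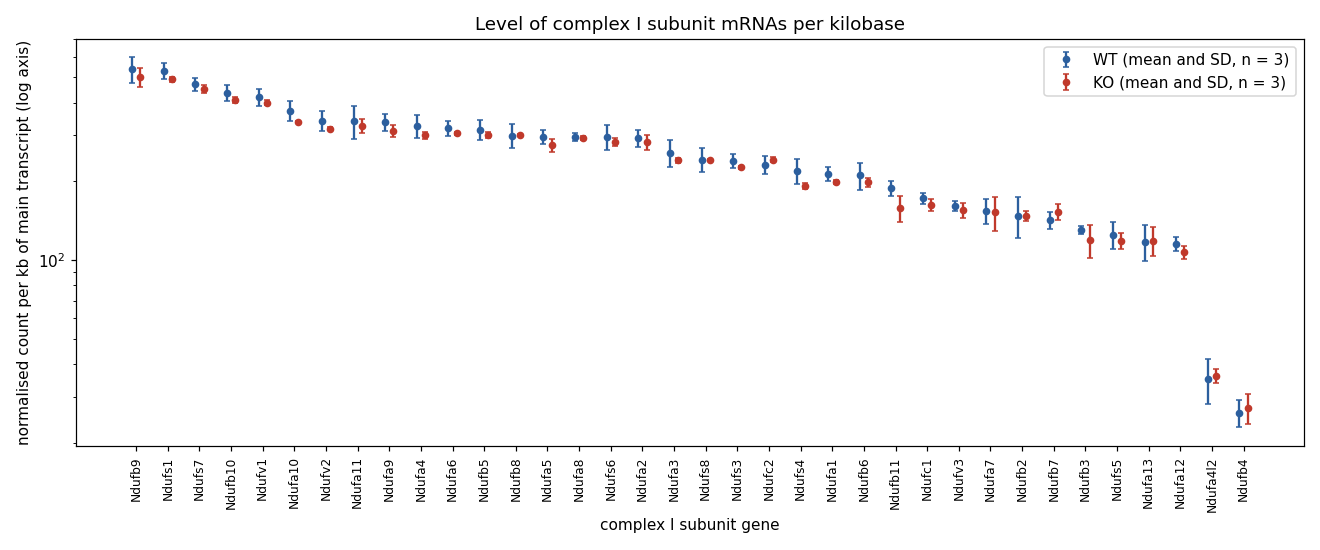
Normalised counts per kilobase of the main transcript (log axis) for complex I subunit genes, as mean and SD of 3 WT (blue) and 3 KO (red) hearts. The 36 members drawn fall off gradually from 536 for Ndufb9 to 115 for Ndufa12, and Ndufa4l2 and Ndufb4 stand below the rest in both genotypes.

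The transcript chosen to stand for a gene set some of these ranks. The rule for it was settled after levels under 4 rules had been seen, and 30 of 37 members had the same length under all 4. *Ndufc1* stood at 172 per kilobase with the better supported transcript of 1249 bases, but at 683, above every other member, with its 315-base RefSeq transcript. *Ndufb2* stood at 148 with its 455-base transcript and at 15.4, below every other member, with that of 4371 bases. *Ndufs7* was 470 or 363, *Ndufa4* 327 or 442, *Ndufs8* 237 to 305, *Ndufs5* 125 or 96.6, and *Ndufs1* 531 or 546. With the union of all annotated exons as length, the ranks of the 37 members correlated with those given at a Spearman rho of 0.67, a correlation across genes that share the same libraries.

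Some members also share sequence with other genes, and reads of more than 1 location had been removed. Of all stretches of 75 bases (the read length) in the main transcript, 35.2% of those of *Ndufb4* recurred in other genes, mainly *Ndufb4c*. The share was 32.4% for *Ndufs5* (BC002163), 27.1% for *Ndufs3* (Gm12251) and 22.0% for *Ndufa12* (Gm15920), all of which may therefore be under-counted. It was between 1.06 and 3.34% for *Ndufa11*, *Ndufb3*, *Ndufb11* and *Ndufs6*, and 29 members had no such stretch. *Ndufb2*, *Ndufb8* and *Ndufb9* share exons with an overlapping gene on the same strand, whose shared reads were not counted.

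The comparison of KO with WT hearts asked whether loss of *Trdn-as* changed these mRNAs. It moved none of them past the test. Of 37 members, 0 had an adjusted p under 0.05 (limma), against 0.0291% of all genes tested, and the adjusted p of the members ran from 0.851 to 1.00. At an unadjusted p under 0.05 there were 3 members, *Ndufb11*, *Ndufs4* and *Ndufa10*, all lower in KO, where 5.74% of all genes tested passed in either direction with 2.8% lower and 2.94% higher. Levels were close: the KO mean was between 0.9 and 1.1 times the WT mean in 35 of 37 members, with a lowest ratio of 0.839 (*Ndufb11*) and a highest of 1.08 (*Ndufb7*). The 95% interval of the fold change lay within 1.5-fold in either direction for all 37 members. The fold change was below 0 for 29 members and above 0 for 8, against 49.4% of all genes below 0. Most members are densely covered, and among all genes with 128 to 256 normalised counts per kilobase of exons 82.5% were below 0 (14 of 16 members), as were 94.4% of those above 256 (6 of 6 members). The members had a median log2 fold change of -0.07 against 0.00 for all genes. The groups were separated in 2 members, *Ndufb11* and *Ndufa1*, both lower in KO, and in 0 members higher in KO. Of all genes tested 9.07% were separated, 4.44% with KO lower and 4.64% with KO higher.

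**Figure D2:**
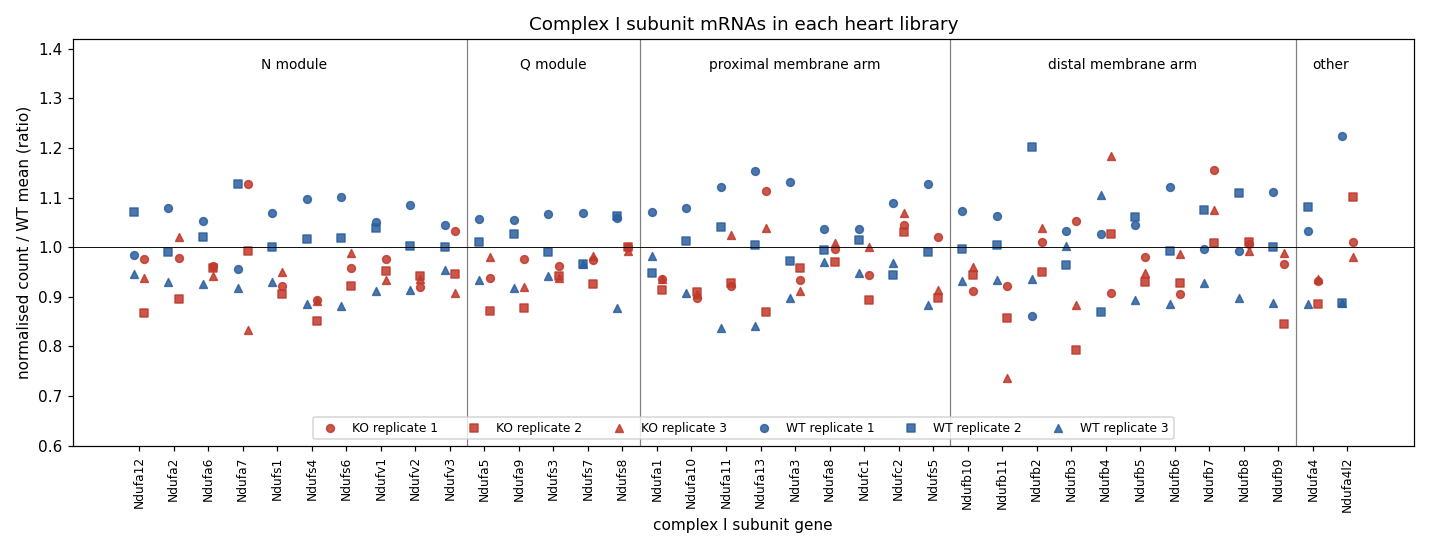
Normalised count of 36 complex I subunit genes in each of the 6 hearts, divided by the mean of the 3 WT hearts (ratio), ordered by the part of the enzyme, with KO in red and WT in blue. KO and WT values overlap for all members drawn but Ndufb11 and Ndufa1, and WT replicate 1 (blue circles) is the highest of the 6 in most.

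The core subunits of the N module carry the site where NADH is oxidised. *Ndufv1*, the flavoprotein that binds NADH, had 681, 663 and 651 normalised counts in KO and 732, 724 and 635 in WT hearts. Its partner *Ndufv2*, which holds an iron-sulfur cluster, had 533, 546 and 543 in KO and 629, 581 and 530 in WT. *Ndufs1*, the largest subunit, carrying several clusters, had 1303, 1281 and 1344 in KO and 1512, 1415 and 1313 in WT. In each of these genes WT replicate 3 lay at or near the KO values or below them, while WT replicates 1 and 2 lay above. The log2 fold changes were -0.06 for *Ndufv1* (SE 0.07), -0.10 for *Ndufv2* (SE 0.07) and -0.11 for *Ndufs1* (SE 0.06), with adjusted p of 0.941, 0.903 and 0.861 (limma). Without WT replicate 1 they were -0.03, -0.04 and -0.06, and without WT replicate 3 -0.13, -0.16 and -0.16.

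Among the accessory subunits of the N module, *Ndufs4*, whose loss causes Leigh syndrome and impairs the assembly of this module, had 333, 317 and 332 normalised counts in KO and 409, 379 and 330 in WT hearts. WT replicate 3 lay within the KO range. Means ± SD were 327 ± 8.96 (KO) and 373 ± 39.9 (WT, n = 3 each), for a fitted log2 ratio of -0.18 (SE 0.08) at an unadjusted p of 0.0353 and an adjusted p of 0.851 (limma). The ratio was -0.11 without WT replicate 1 (unadjusted p 0.198, limma) and -0.27 without WT replicate 3 (unadjusted p 0.00284). At an unadjusted p under 0.05 it also failed without KO replicate 2, KO replicate 3 or WT replicate 2. The gene lies on the minus strand at chr13:114287795-114388258 (GRCm38), and its promoter window holds one of the YY1 matches. All 10 members of the N module had a fold change below 0, from -0.18 to -0.03 with a median of -0.07. Of all genes tested 49.4% were below 0, as were 82.5% of those with 128 to 256 normalised counts per kilobase of exons. The module's median by that measure was 149. Its median fold change was -0.03 with 8 below 0 when WT replicate 1 was left out. After a correction for read density it was -0.04, also with 8 below 0. Summed normalised counts of the 10 members were 3838, 3727 and 3805 in KO and 4318, 4114 and 3727 in WT, so that WT replicate 3 equalled KO replicate 2.

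The Q module reduces ubiquinone. *Ndufs7*, which carries the last cluster before ubiquinone, had 347, 330 and 350 normalised counts in KO and 381, 344 and 344 in WT hearts. The groups overlapped, with WT replicate 1 highest. *Ndufs3*, a scaffold of the module, had 241, 236 and 235 in KO and 267, 248 and 236 in WT. *Ndufs8*, which holds a pair of iron-sulfur clusters, had 238, 238 and 236 in KO and 252, 253 and 209 in WT, with all KO values between those of the WT hearts. The log2 fold changes were -0.06 for *Ndufs7*, -0.07 for *Ndufs3* and 0.00 for *Ndufs8* (SE 0.07, 0.08 and 0.09). These were -0.01, -0.03 and 0.05 without WT replicate 1, and -0.08, -0.12 and -0.09 without WT replicate 3. Without KO replicate 2 *Ndufs7* was -0.03. Among all genes with 128 to 256 normalised counts per kilobase of exons, where this module's median (213) lay, 82.5% were below 0. Of the 6 members of the module 5 were below 0, with a median of -0.08, and 0 had an unadjusted p under 0.05. The median was -0.03 without WT replicate 1, and after a correction for read density it was -0.01 with 3 of 6 below 0.

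In the membrane arm, the part near the Q module held 9 members, of which 7 had a fold change below 0, with a median of -0.08. Their median lay at 166 normalised counts per kilobase of exons, and 82.5% of all genes from 128 to 256 were below 0. Without WT replicate 1 the direction turned, with 3 of 9 below 0 and a median of 0.01, and after the density correction the median was -0.04. *Ndufa10*, an accessory subunit of this part, had 678, 686 and 683 normalised counts in KO and 815, 764 and 685 in WT hearts. The 3 KO values lay close together and WT replicate 3 was among them. Means ± SD were 682 ± 4.04 (KO) and 755 ± 65.5 (WT, n = 3 each), for a fitted log2 ratio of -0.14 (SE 0.07) at an unadjusted p of 0.0450 and an adjusted p of 0.851 (limma). This ratio was -0.08 without WT replicate 1 (unadjusted p 0.218, limma) and -0.21 without WT replicate 3 (unadjusted p 0.00325), and leaving out any other library also took its unadjusted p above 0.05. *Ndufc2* had 165, 163 and 169 in KO and 172, 149 and 153 in WT, for a fitted log2 ratio of 0.07 (SE 0.09), with the KO values inside the WT range, and from 0.03 without WT replicate 2 to 0.13 without WT replicate 1. *Ndufa1*, on the X chromosome, had 84, 82 and 84 in KO and 96, 85 and 88 in WT. Its groups did not overlap, by a margin of 1 count. Its log2 fold change was -0.10 (SE 0.12), and from -0.14 to -0.03 across the settings run.

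In the distal membrane arm 6 of 10 members were below 0 and 4 above, with a median of -0.07 that was -0.03 without WT replicate 1 and -0.01 after the density correction. Their median lay at 95.7 normalised counts per kilobase of exons, and 56.15% of all genes from 64 to 128 were below 0. *Ndufb11*, an X-linked subunit needed to complete the membrane arm, had 158, 147 and 126 normalised counts in KO and 182, 172 and 160 in WT hearts. All KO values lay below all WT values, the closest being 158 and 160. Means ± SD were 144 ± 16.3 (KO) and 171 ± 11.0 (WT, n = 3 each), for a fitted log2 ratio of -0.26 (SE 0.10) at an unadjusted p of 0.0227 and an adjusted p of 0.851 (limma). Leaving out KO replicate 3 gave -0.17 (unadjusted p 0.151, limma), and it also missed an unadjusted p of 0.05 without WT replicate 1 (-0.21) and without WT replicate 2 (-0.25). The gene lies on the minus strand at chrX:20615326-20617619. Xist, made from the inactive X of females, had 1 to 4 normalised counts and the Y-linked Ddx3y 673 to 735 across the 6 hearts, with no split by genotype. By these genes all 6 hearts were male. *Ndufb3* had 105, 79 and 88 in KO and 103, 96 and 100 in WT, for a fitted log2 ratio of -0.14 (SE 0.13), and here KO replicate 1 was the highest of the 6 hearts. The ratio was -0.25 without KO replicate 1 and -0.05 without KO replicate 2. *Ndufb7* had 102, 89 and 95 in KO and 88, 95 and 82 in WT, the highest fold change of the members at 0.11 (SE 0.12), with overlapping groups, and 0.06 without KO replicate 1 or without WT replicate 3.

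*Ndufa4* and *Ndufa4l2* match the naming rule, although the *Ndufa4* protein is counted with complex IV and *Ndufa4l2* is a hypoxia-induced relative of it. *Ndufa4* had 186, 177 and 187 normalised counts in KO and 206, 216 and 177 in WT hearts, for a fitted log2 ratio of -0.12 (SE 0.09). It was -0.06 without WT replicate 2 and -0.20 without WT replicate 3. *Ndufa4l2* had 33, 36 and 32 in KO and 40, 29 and 29 in WT, for a fitted log2 ratio of 0.06 (SE 0.20). This ratio was 0.21 without WT replicate 1, and -0.02 without WT replicate 2 or without WT replicate 3. Neither gene separated the groups. Without both, 28 of 35 members were below 0 and the median was unchanged at -0.07. *Ndufab1*, the acyl carrier protein that is a subunit of complex I outside the naming rule, had 235, 265 and 242 in KO and 233, 226 and 259 in WT, for a fitted log2 ratio of 0.05 (SE 0.08). This ratio was 0.03 without WT replicate 1.

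**Figure D3:**
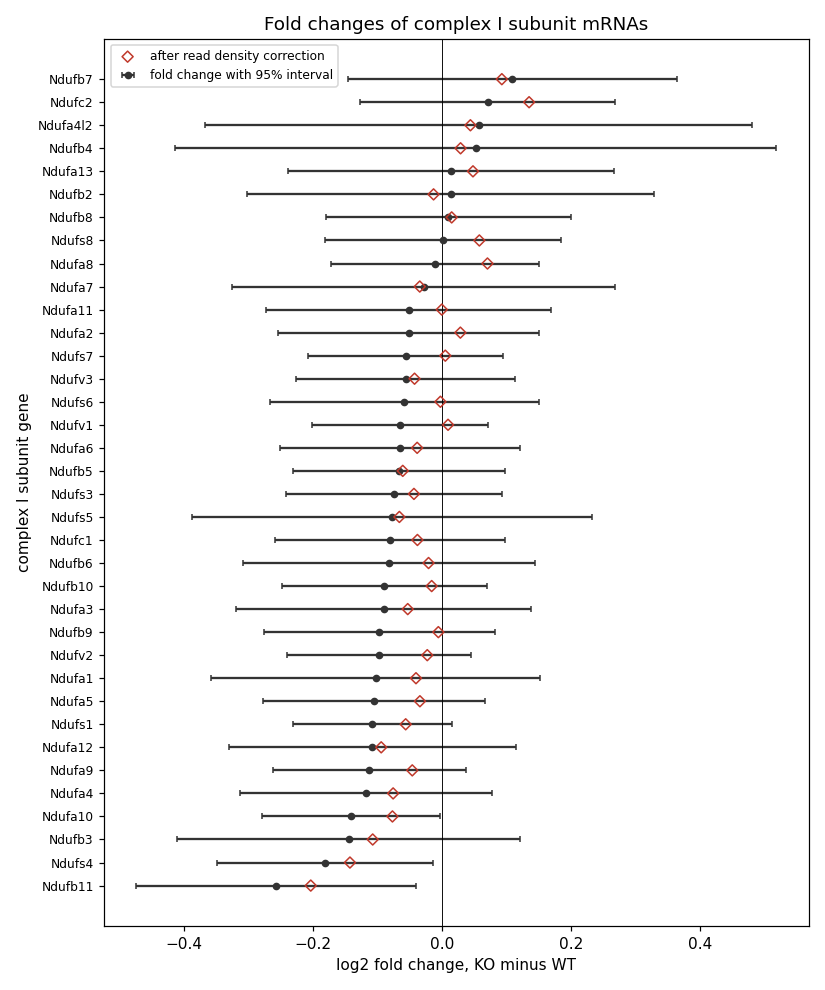
Log2 fold change (KO minus WT) of 36 complex I subunit genes with its 95% interval (black), and the fold change after a correction for read density (open red diamonds). The intervals of Ndufb11, Ndufs4 and Ndufa10 end just below 0, and those of the other members drawn include it.

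Across libraries, WT replicate 1 held the highest of the 6 values for 27 of 37 members, or 73%. It did so for 20.8% of all genes tested, for 61.3% of those with 128 to 256 normalised counts per kilobase of exons and for 88.3% of those above 256. The members' lowest value lay in WT replicate 3 for 14 (37.8%) and in KO replicate 2 for 13 (35.1%). For all genes tested these shares were 16.3 and 18.8%. They were 24.1 and 37.3% for genes with 128 to 256 normalised counts per kilobase, and 32.1 and 32.7% above 256. Relative to each gene's mean over the 6 hearts, the median member stood at 0.00, -0.06 and -0.02 on the log2 scale in KO replicates 1 to 3, and at 0.13, 0.06 and -0.08 in WT replicates 1 to 3. Summed over the members, normalised counts were 10137, 9807 and 10116 in KO (10020 ± 185) and 11341, 10803 and 9762 in WT (10635 ± 803, SD, n = 3), and the groups overlapped. The SD was larger in WT than in KO for 30 of 37 members. This count was not taken for all genes tested, so it is not read as a trait of the members or of the groups. The coefficient of variation over the 6 hearts was 2.54% for *Ndufa8*, the lowest, and 12.9% for *Ndufa4l2*, the highest, with a median of 6.93%. WT replicate 1 was also the library with the fewest reads and the highest sum of cardiomyocyte markers (22840), and the part of either in these values was not tested.

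Leaving out single WT libraries moved the picture in opposite directions. Without WT replicate 1 the median log2 fold change was -0.03, 23 members were below 0 and 0 had an unadjusted p under 0.05, where 49.9% of all genes in that fit were below 0 and 4.36% had such a p. Without WT replicate 3 the median was -0.14, 34 members were below 0 and 10 had an unadjusted p under 0.05, among them *Ndufa4*, *Ndufa9*, *Ndufa10*, *Ndufb9*, *Ndufb11*, *Ndufs1*, *Ndufs4*, *Ndufv1* and *Ndufv2*. All 10 were lower in KO, and of all genes in that fit 49.7% were below 0, 8.6% had such a p and 4.4% were lower with such a p. In no setting run did a member reach an adjusted p under 0.05, the smallest being 0.334 (limma).

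Fold changes across all genes varied with read density, the normalised count per kilobase of exons. The median density of the members was 166 against 25.8 for all genes tested, at the 96.2th percentile. Genes with a density from 128 to 256 had a median log2 fold change of -0.06 over all genes and -0.10 over the 16 members in that class, and genes above 256 had -0.10 over all genes and -0.07 over the 6 members there. Between 64 and 128 the medians were -0.01 and -0.07 (10 members). When each library was corrected for its deviation along density, the median of the members was -0.02, with 25 below 0 and 0 at an unadjusted p under 0.05, against 49.4% and 5.66% of all genes so corrected. *Ndufb11* then stood at -0.20, *Ndufs4* at -0.14 and *Ndufa10* at -0.08 (unadjusted p 0.0555, 0.0584 and 0.158, limma).

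**Figure D4:**
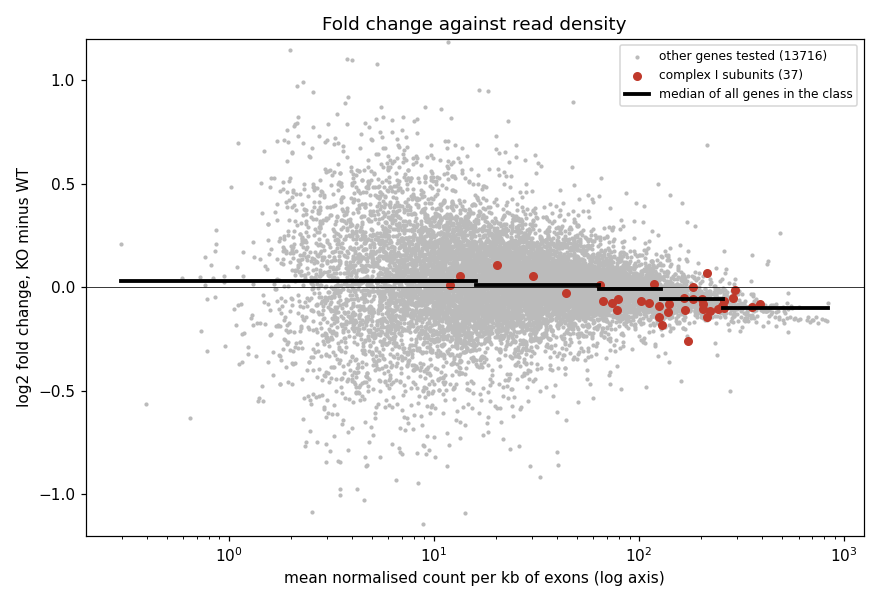
Log2 fold change (KO minus WT) against the mean normalised count per kilobase of exons (log axis) for the genes tested, with complex I subunits in red and the median of all genes in each density class as black lines. The class median goes from 0.03 in the lowest class to -0.10 above 256, and most members lie in the 3 densest classes; 5 genes beyond 1.2 on the fold axis are not drawn.

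Genes that work with the subunits gave the following counts. Of the 16 assembly factors in the table, proteins that build complex I without staying in it, 8 were below 0 and 8 above, with a median of 0.00 and 0 at an adjusted p under 0.05. The 1 factor at an unadjusted p under 0.05 was *Foxred1*, with 257, 236 and 337 normalised counts in KO and 360, 332 and 347 in WT hearts. KO replicate 3 lay within the WT range there. Of the nuclear subunits of complexes II to V, 41 of 42 were tested, 36 were below 0 with a median of -0.12, and 3 were lower and 1 higher at an unadjusted p under 0.05, against 49.4, 2.8 and 2.94% of all genes. That median was -0.05 without WT replicate 1 and -0.04 after the density correction. *Cox4i2*, a complex IV isoform, was the 1 higher, with 52, 38 and 44 in KO and 30, 30 and 28 in WT.

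Of 11 regulators of respiratory genes, 6 were below 0 and 5 above, with a median of -0.01. *Ppargc1a*, the coactivator PGC-1alpha, had 1329, 1256 and 1208 normalised counts in KO and 1401, 1365 and 1349 in WT hearts, with no overlap and an unadjusted p of 0.0461 but an adjusted p of 0.851 (limma). The 6 cardiomyocyte markers were all below 0, with a median of -0.15, 3 at an unadjusted p under 0.05 and 0 at an adjusted one, where 2.8% of all genes were lower with such a p and 94.4% of those above 256 counts per kilobase, where the median marker lay, were below 0. Their median was -0.06 without WT replicate 1 and -0.05 after the density correction. Medians of the other marker lists were 0.03 for endothelial cells (4 tested), 0.01 for fibroblasts (4), -0.05 for smooth muscle and pericytes (4), -0.02 for macrophages (4), 0.17 for atrial genes (4), -0.22 for blood (5), 0.00 for fat (2 of 5 tested) and -0.11 for skeletal muscle (1 of 6 tested). The 1 skeletal muscle gene tested stood at 280 normalised counts per kilobase of exons, and its fold change was -0.03 after the density correction. Without WT replicate 1 the median was 0.00 for atrial genes, and it turned to 0.05 for blood, 0.05 for macrophages and 0.06 for fat. It was then 0.06 for endothelial cells, 0.04 for fibroblasts, 0.00 for smooth muscle and pericytes and -0.04 for skeletal muscle. Summed blood markers were 164 to 304 in KO and 151 to 423 in WT hearts, and no marker found in the table was at 0 in all 6 hearts. The part of cell composition in the members' values was not tested.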

How the data were processed

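Total RNA of 6 mouse hearts (3 KO, 3 WT) was sequenced by the authors as stranded 75-base single-end libraries. They trimmed reads (Trimmomatic 0.39), aligned them to GRCm38 (STAR 2.6.1d), removed duplicates (Picard 2.21.1), multi-mapping, ribosomal and mitochondrial reads, and counted exonic reads per gene by strand (featureCounts 1.6.5). The score the authors deposited is the count divided by a DESeq2 (1.18.1) size factor and rounded. Size factors, and from them read totals, were estimated here from the spacing of the rounded values.

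Genotypes were compared with limma 3.58.1 (R 4.3.3, mean-variance trend, two-sided) on log2(value + 1), so fold changes of low genes are understated. Genes with a mean of at least 10 were tested, with Benjamini-Hochberg adjustment over 13753 genes and a threshold of 0.05. Tested on simulated data, the test recovered 63 to 66.7% of changes of 1.5-fold and 88.8 to 93.9% of changes of 2-fold. The simulation gave every gene the same dispersion and held no shift between libraries or along read density. Its changed genes were drawn from all genes with a mean of at least 10, so these shares are not those of the members. No source used here says whether the mice shared litters or days, so p-values measure the spread between these samples. Each gene's variance was drawn towards that of genes of like level, with 15.44 prior against 4 residual degrees of freedom.

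Members and lists (parts of complex I, assembly factors, complexes II to V, regulators, cell markers) were chosen with earlier results of these data known. Of the members, 1 counts in all totals but is not reported here by name. Values in every heart are given for core subunits, members at an unadjusted p under 0.05, the 3 highest and 3 lowest fold changes, *Ndufa4* and *Ndufa4l2*; *Ndufa1*, *Ndufab1*, *Foxred1*, *Cox4i2* and *Ppargc1a* were named after their values were seen. Main transcripts (GENCODE M21) were ranked by APPRIS level, transcript support, RefSeq link and length. This order was settled after levels under the shortest, the longest and the RefSeq-first transcript had been seen. Alternatives were other scalings, filters, pseudocount, limma-voom, no trend, a replicate block, a density correction and leaving out each library. *Ndufb1*, *Coa1*, *Dmac1*, *Myh1* and *Myh4* were not analysed here.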

Additional observations from a re-analysis of the deposited data

How the results depend on the processing

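The count of members at an adjusted p under 0.05 (limma) was 0 in all 16 alternatives, and the median log2 fold change of the members stayed below 0, from -0.14 to -0.01. Members at an unadjusted p under 0.05 numbered 1 under total scaling (5.99% of all genes in that fit), 0 without the mean-variance trend (5.67%), 0 under the density correction (5.66%), and 0 to 10 when 1 library was left out (3.69 to 8.6%). With the density correction and WT replicate 1 left out together, chosen after seeing the data, there were 0 (4.48%), and 19 members were below 0 (49.7% of all genes). Over all genes, 2 passed with at least 10 in every sample, 1 without the trend, and 2 to 32 when 1 library was left out. The direction turned in at least 1 setting for 18 of 37 members, whose log2 fold changes as reported ran from -0.10 to 0.06. Under the density correction *Ndufv1* was 0.0094 and *Ndufs7* 0.0051, and with WT replicate 1 also left out 0.0039 and 0.018. Leaving out 1 library gave *Ndufs8* from -0.089 to 0.048 (-0.0005 without KO replicate 1 and without KO replicate 2) and *Ndufa4l2* from -0.018 to 0.21. In every setting 17 members were below 0 and 2, *Ndufb7* and *Ndufc2*, above. Replicate numbers did not pair the hearts (correlations across genes 0.048, -0.068 and -0.028), and with the replicate block 0 members passed and 3 were at an unadjusted p under 0.05 (5.82% of all genes in that fit). The cause of these shifts was not tested. With a median SE of 0.09, differences of a few percent were not detectable with 3 hearts a group, and larger ones could also miss the threshold. *Ndufb11*, with a KO mean 0.839 times the WT mean, had an adjusted p of 0.851 (limma).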
